A study of Drosophila melanogaster with 3 samples.

Results

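The peaks described here are those of a forkhead transcription factor at promoters that carry transcription start sites (TSSs) on both strands. A peak of the list that passed the irreproducible discovery rate (IDR) procedure was a member when its summit had at least 1 annotated plus-strand TSS and at least 1 minus-strand TSS within 500 bp, and no TSS of a cytosolic ribosomal protein gene in that distance. The rule found 256 of the 2919 IDR peaks (8.77%), which is 20.8% of the 1230 summits within 500 bp of any TSS. Another 906 summits, called one-way below, had TSSs on 1 strand only, 68 were dropped at ribosomal protein genes and 1689 lay away from promoters. Of the 68 dropped summits, 31 had TSSs on both strands. The rule used no binding strength and no sequence.

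The data came from 1 group of 3 biological replicates of whole Drosophila melanogaster embryos, aged 8 to 14 h and of both sexes, which carried a C-terminal GFP fusion of fd64A (FoxL1) from an inserted transgene. The 3 replicates shared 1 donor strain and 1 input alignment. The tests counted peaks of 1 pooled list, so their p-values measure the spread between peaks and not between replicates or fly lines. A free-text label calls each sample an input control, but the other labels mark it as an immunoprecipitation. One label on age gives no usable number of hours, so the age of the source name is used, and whether the embryos also kept an untagged fd64A gene is not given in the sources used here. Read depth is unknown, because the files list peaks with a deposited signal (the authors' own measure of peak strength, without a unit) and no reads. That signal ranks peaks within a list and was not compared in size between lists. In whole embryos, binding in fewer cells and less binding per cell cannot be told apart.

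At a divergent promoter a pair of genes starts back to back and is read away from each other, so that a short stretch of DNA serves both. In Drosophila such promoters often belong to widely expressed genes, and their sequence often carries sites of DREF, BEAF-32 and M1BP, which act at housekeeping promoters and domain borders. GAGA factor binds GA repeats and is known for opening chromatin at promoters of developmentally regulated genes. Forkhead proteins bind words close to RTAAAYA (R is A or G, Y is C or T), with GTAAACA as the best known form.

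The sequences of leading members show how the forkhead word sat in these promoters. Each stretch is the plus strand of dm6 (release 6 of the genome), centred on the summit and reaching 50 bp to each side, with any RTAAAYA on either strand in capitals, and none of the 4 overlaps an annotated exon. The first belongs to the strongest of all members and carries no such word, and the other 3 belong to the strongest members that carry one.
mRpS23/CenG1A (chr2L:13835427-13835527): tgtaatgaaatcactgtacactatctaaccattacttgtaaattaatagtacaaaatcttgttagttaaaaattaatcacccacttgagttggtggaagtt
CG11309/CG7632 (chr3L:21304498-21304598): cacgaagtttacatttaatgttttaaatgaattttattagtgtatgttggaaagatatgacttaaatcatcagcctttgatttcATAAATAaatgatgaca
Art3/mRpS10 (chr3R:15229478-15229578): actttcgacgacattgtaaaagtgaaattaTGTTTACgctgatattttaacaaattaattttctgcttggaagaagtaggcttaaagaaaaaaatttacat
Tcs5/CHMP2B (chr3L:5139455-5139555): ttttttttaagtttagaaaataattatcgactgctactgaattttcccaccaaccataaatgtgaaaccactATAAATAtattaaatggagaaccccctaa
In Art3/mRpS10 the word reads GTAAACA on the minus strand, and the remaining capitals read ATAAATA on the plus strand.

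Weaker members carried further words of the form RTAAAYA, shown here in 30 bases around the word nearest the summit.
eIF4EHP/CG18428 (chr3R:24109235-24109264): attacATAAATAGTAAACAtatattccaaa
brm/Arl1 (chr3L:15982987-15983016): tccttaaaatggTATTTATttaaatttaat
E(z)/Cnep1r2 (chr3L:10638071-10638100): tgaaagtaggaaATAAACAaagagcccctc
The eIF4EHP/CG18428 promoter holds ATAAATA and GTAAACA side by side, and brm and E(z) encode chromatin regulators described below.

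A different word, the DREF site TATCGATA, is capitalised in the next 30-base stretches, which are the 6 DREF carriers shown of 8 members with the site within 50 bp of the summit.
CG34290/Uck (chr3R:24290147-24290176): cgacaatcgaaaTATCGATAgcaatggtaa
CG14817/CG14805 (chrX:1877307-1877336): atggtttcgctTATCGATAggaaactaccg
asRNA:CR44982/Atxn7 (chr2L:2375814-2375843): acctgtgcgacTATCGATAacatatcgcac
eIF3a/CG1074 (chr3R:4433915-4433944): cctggctgcgtTATCGATAgttcaggccga
asRNA:CR45008/CG7115 (chr2L:7821508-7821537): gcttcggccccTATCGATAtttcaaaagtt
mtsh/strat (chr2L:8320281-8320310): taagtatcgtcTATCGATAacgacacagtg
The centre of the site lay between 17.5 bp on the low-coordinate side and 36.5 bp on the high-coordinate side of the summit. None of the 8 DREF carriers had RTAAAYA in the same window.

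Both-strand promoter DNA held more summits per base than one-way promoter DNA. It covered 2.17 Mb, against 15.9 Mb of one-way promoter DNA, and held 256 of the 1162 summits in them (22.0%, 95% Wilson interval 19.7 to 24.5). That is 118 summits per Mb at both-strand promoters and 57.1 per Mb at one-way promoters, a ratio of 2.07. In the 2919 leading peaks of each replicate the share was 22.9% in replicate 1, 18.6% in replicate 2 and 20.3% in replicate 3, or 20.6 ± 2.17% (SD, n = 3). The density ratio there was 2.18, 1.67 and 1.87 in replicates 1, 2 and 3, or 1.91 ± 0.254 (SD, n = 3), above 1 in each. The smallest p that a two-sided sign test over 3 replicates allows is 0.25, so these values carry no test. The distance to the nearest TSS was not held equal between both kinds of promoter DNA. In the pooled relaxed list, which also holds weak peaks and background, the ratio was 1.57.

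Counted per gene, the members touched 486 of the 5697 protein-coding genes that have an opposite-strand TSS of another gene within 1000 bp (8.53%, 95% Wilson interval 7.83 to 9.28). Of the 8156 other protein-coding genes, 504 had a one-way summit (6.18%, 5.68 to 6.72). A both-strand summit counts for genes on both of its sides, so these shares are no like comparison. The intervals treat such neighbouring genes as independent. Among the same 5697 genes, 233 had a one-way summit (4.09%, 3.61 to 4.64). On the chromosome arms, 57 members lay on 2L, 61 on 2R, 50 on 3L, 60 on 3R and 28 on X, with none on chromosome 4, against 162, 201, 198, 211, 132 and 2 one-way summits.

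Nearly all members were divergent promoters. The nearest plus and minus TSSs pointed away from each other at 239 of 256 members (93.4%) and faced each other at 17. The divergent share of all annotated both-strand promoters, bound or not, is not given here. The 93.4% therefore describes the members and is no result about binding. The 256 summits fell on 255 distinct TSS pairs, so almost every promoter contributed 1 summit. At 207 of the divergent members both nearest TSSs belonged to protein-coding genes, at 29 a protein-coding gene was paired with a non-coding one, and at 3 both were non-coding. The divergent TSSs were 265 bp apart at the median (lowest 9, highest 856).

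Summits lay mostly in the gap between the TSSs. At 160 of the 239 divergent members (66.9%) the summit was between the pair, where the gap made up 42.5% of the positions the rule allows, averaged over pairs. The share was 68.4%, 61.3% and 70.4% in the leading divergent peaks of replicates 1, 2 and 3 (66.7 ± 4.77%, SD, n = 3). The nearer TSS was 89.5 bp from the summit at the median and the farther 220.5 bp. The nearest TSS of one-way summits was 165 bp away, but the rule gives members the smaller of 2 distances, so these medians are no comparison of position. Summits fell in an annotated exon at 41.0% of members and 33.3% of one-way peaks. At the edge of the rule, 12 members whose farther TSS was 451 to 500 bp away had a median signal of 208, and 15 one-way summits whose opposite-strand TSS was just outside, at 501 to 550 bp, had 346.

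**Figure D1:**
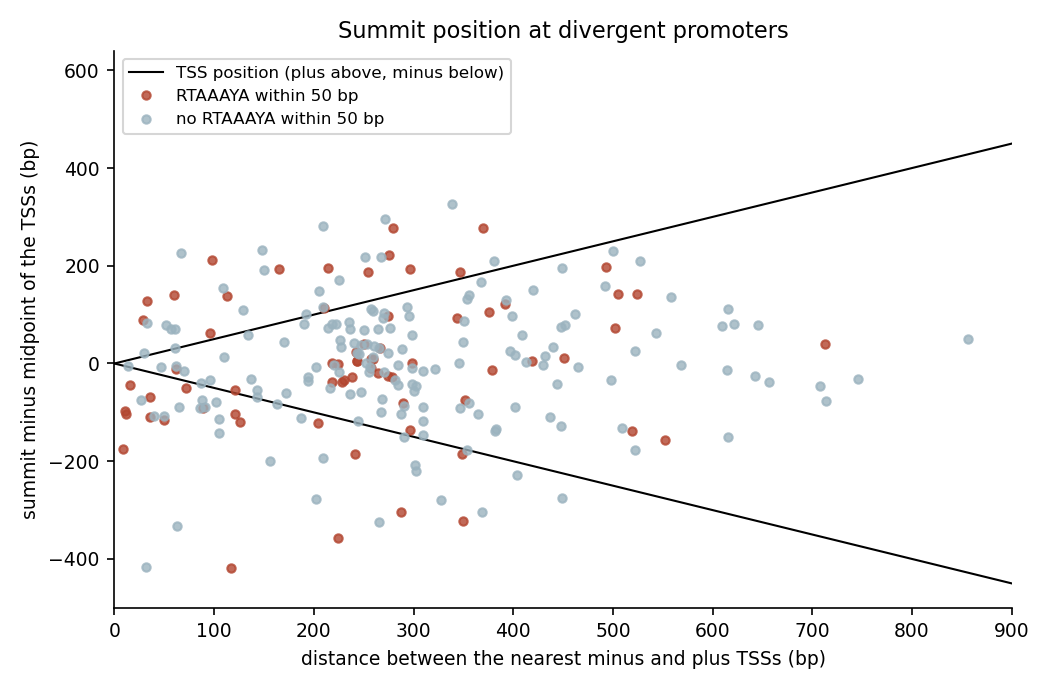
Summit position at the 239 divergent members: the horizontal axis is the distance between the nearest minus and plus TSSs in bp, the vertical axis the summit's offset from their midpoint in bp, the lines mark the TSSs, and red points carry RTAAAYA within 50 bp. The 160 points between the lines are summits inside the gap, and 33 of the 79 points beyond the lines carry the word.

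The forkhead word was less frequent inside the gap than beyond it in the IDR list, but not evenly so across replicates. It was present at 33 of 79 summits beyond the TSS pair (41.8%, 95% Wilson interval 31.5 to 52.8) and at 37 of 160 summits in the gap (23.1%, 17.3 to 30.2). In the leading peaks of replicate 1 the shares were 40.7% beyond and 22.3% in the gap. They were 30.5% and 28.5% in replicate 2, and 27.0% and 24.7% in replicate 3, so the difference was 7.60 ± 9.40 percentage points (SD, n = 3) and rests on replicate 1. The comparison was made after these values were seen and carries no test. The windows beyond the pair were richer in G and C (39.7%) than those in the gap (34.5%). By spacing, the word was at 20 of 54 members with TSSs 1 to 150 bp apart, 32 of 100 at 151 to 300 bp, 12 of 60 at 301 to 500 bp and 6 of 25 at 501 bp or more, with intervals that overlap.

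The strongest member was the promoter of mRpS23 (FBgn0260407), a protein of the small mitochondrial ribosomal subunit, and CenG1A (FBgn0028509), an Arf GTPase-activating protein, at chr2L:13835319-13835623 and rank 13 of the IDR list. Its signal was 1679 in the IDR list and 599, 606 and 488 in replicates 1, 2 and 3, where it ranked 21, 11 and 18. The summit lay 87 bp from the CenG1A TSS and 405 bp from that of mRpS23. The next paired Chro, a chromodomain protein of interband chromatin and the spindle matrix, with Ssl1, a subunit of the general transcription factor TFIIH, at chr3L:22878738-22879069. It ranked 18 in the IDR list and 13, 18 and 20 in the replicates, with signals of 645, 453 and 482, and its summit lay in an exon 89 bp from the Chro TSS.

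The promoter of Art3 and mRpS10 carried the best known form of the word. Art3, an arginine methyltransferase, shared its promoter with mRpS10 at chr3R:15229391-15229681 (rank 33, with ranks 20, 40 and 70 and signals of 605, 353 and 328 in the replicates). Replicate 1 had the lowest rank number. Tcs5, a kinase of the tRNA-modifying KEOPS complex, and CHMP2B, a membrane-remodelling ESCRT-III subunit, faced away from each other at chr3L:5139348-5139645 (rank 37, with ranks 39, 34 and 38). The 12 strongest members ranked between 11 and 152 in every replicate, and CG13390/CG17294 varied most among them in the plot of ranks, with ranks 32, 126 and 64.

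**Figure D2:**
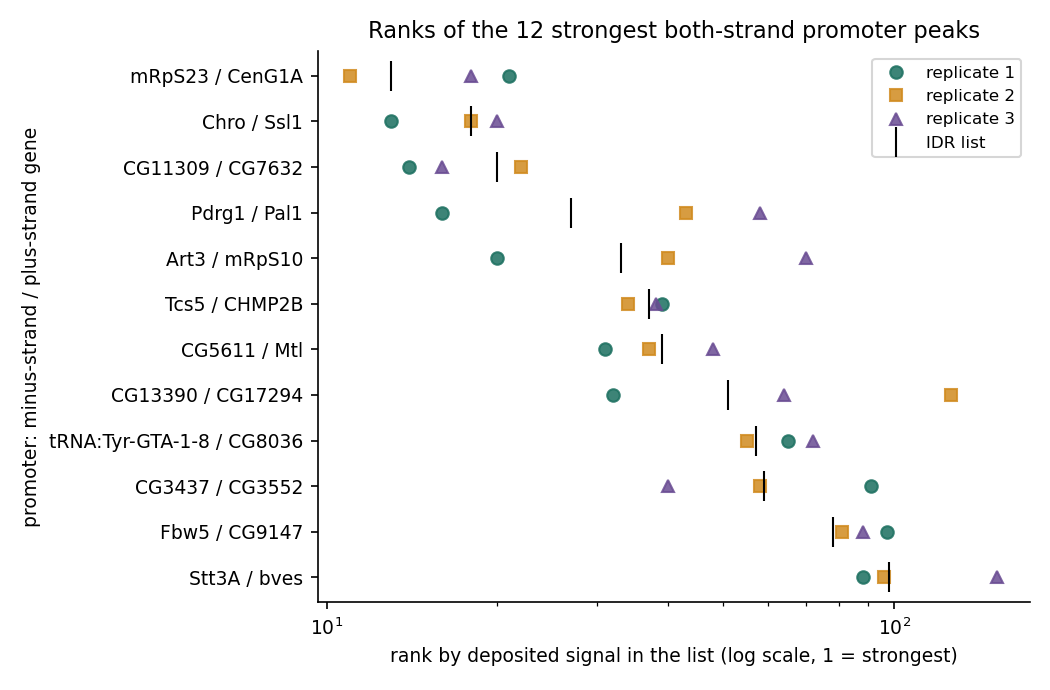
Ranks of the 12 strongest members by deposited signal (horizontal, log scale, 1 is the strongest) in the IDR list and in each replicate, with 1 row per promoter named by its minus-strand and plus-strand gene. mRpS23/CenG1A, Chro/Ssl1 and CG11309/CG7632 ranked 22 or better in all 3 replicates, and Stt3A/bves reached rank 152 in replicate 3.

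Further down, some named members varied widely in rank between replicates. eIF4EHP, a cap-binding repressor of translation, shared its promoter with CG18428, and the peak at chr3R:24109172-24109329 had signals of 347, 63.4 and 187 and ranks of 114, 2528 and 333 in replicates 1, 2 and 3. The promoter of M1BP, which encodes the factor that binds GGTCACAC, shared with CG8202 (chr3R:8731822-8732225), had signals of 119, 21.0 and 78.3 and ranks of 1414, 24008 and 2066. Both ranked lowest in replicate 2. In comparison, the promoter of brm, the ATPase of the Brahma chromatin-remodelling complex, and Arl1, a Golgi GTPase (chr3L:15982884-15983114), had signals of 184, 183 and 205 and ranks of 599, 280 and 270. The weakest 3 members were CG8089/CG7544, Rpn6/ave and Ciao1/HPS1, with IDR-list signals of 190.5, 190.4 and 190.1, the first 2 of which carried RTAAAYA. Rpn6 encodes a subunit of the proteasome lid.

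Among the 17 members with facing TSSs the strongest was CG31808/Cyt-c-d (chr2L:16716194-16716459, rank 167), where Cyt-c-d encodes a cytochrome c. Its ranks in replicates 1, 2 and 3 were 120, 263 and 216. CG10433/asRNA:CR43243 followed at rank 196 and CG4741/Adck1 at rank 355. Of the 17, 11 paired a protein-coding with a non-coding gene and 13 had the summit in an exon. The forkhead word was at 5 of 17 facing members (29.4%, 95% Wilson interval 13.3 to 53.1) and at 70 of 239 divergent ones (29.3%, 23.9 to 35.3), and the median signal was 266 and 264.

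No difference in strength from one-way summits passed the test. Their median signal was 264 and that of one-way summits 277, and 68 of 256 members (26.6%, 95% Wilson interval 21.5 to 32.3) stood among the 730 strongest IDR peaks, against 242 of 906 one-way summits (26.7%, 23.9 to 29.7). The difference of -0.15 percentage points did not pass (two-sided Fisher's exact test, p = 1), and the sign of this small difference turned under most alternatives, none of which passed.

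Members were less often among the leading peaks of all 3 replicates. This held for 122 of 256 members (47.7%, 95% Wilson interval 41.6 to 53.8) and 518 of 906 one-way summits (57.2%, 53.9 to 60.4), a difference of -9.52 percentage points (two-sided Fisher's exact test, p = 0.0084). The replicates contributed unevenly. In replicate 1, 84.0% of members and 83.1% of one-way summits were leading peaks. In replicate 2 the shares were 69.1% of members and 81.3% of one-way summits, and in replicate 3 they were 73.4% and 78.4%. Without replicate 2 the difference shrank to -3.82 points, with p = 0.259 by Fisher's exact test. It also did not pass with TSS distances of 250 or 1000 bp, with ribosomal protein promoters kept, or among peaks above the median signal. A deposited q-value under 0.05 was found for 239 members and 865 one-way summits.

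Forkhead words were more frequent at member summits than in their flanks. RTAAAYA lay within 50 bp of 75 of 256 member summits (29.3%, with a 95% Wilson interval of 24.1 to 35.1) and, on the background side, in 62 of 512 windows of the same length centred 500 bp to each side (12.1%, 9.56 to 15.2). In Fisher's exact test, two-sided and with Benjamini-Hochberg adjustment over 25 motifs, this 2.42-fold excess had an adjusted p of 3.3e-07. In the leading peaks of replicates 1, 2 and 3 the ratio was 2.52, 2.30 and 2.19 (2.33 ± 0.165, SD, n = 3). GTAAACA lay at 23 summits (8.98%) and in 9 flank windows (1.76%), which is 5.11 times as often, with an adjusted p of 4.81e-05 by Fisher's exact test. Of the 75 members, 57 had 1 word, 17 had 2 and 1 had 3, and the word centre was 18 bp from the summit at the median.

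Base composition moved with this comparison. Member summits had a mean G+C content of 36.5% and their flanks 47.4%, whereas one-way summits and their flanks had 40.6% and 40.5%. The G+C content is therefore higher beside both-strand summits than beside one-way summits, and its part in the flank ratio was not tested. Among 671 words of 7 bases with 2 G or C letters and at least 10 windows in all, the median ratio of summits to flanks was 1.33, and 8 words exceeded the 5.11 of GTAAACA. By Fisher's exact test, 0 of these words had a lower p than GTAAACA. At the midpoints of 2942 annotated divergent TSS pairs, bound or not, RTAAAYA was in 23.2% of windows of the same length and GTAAACA in 3.09%. Members thus had the broad word at 29.3% against 23.2% of all such midpoints, and GTAAACA at 8.98% against 3.09%. These midpoints lie in the gap between TSSs, whereas members include summits beyond it. The 160 divergent summits in the gap had the broad word at 23.1%, close to the share of all midpoints. In the leading peaks of replicates 1, 2 and 3 the gap share was 22.3%, 28.5% and 24.7%. For GTAAACA no share of the gap summits alone is given here. In windows centred on one-way TSSs of the annotation (15339 windows), the shares were 12.4% and 2.55%. A match is a description of the letters and not a measured binding site.

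**Figure D3:**
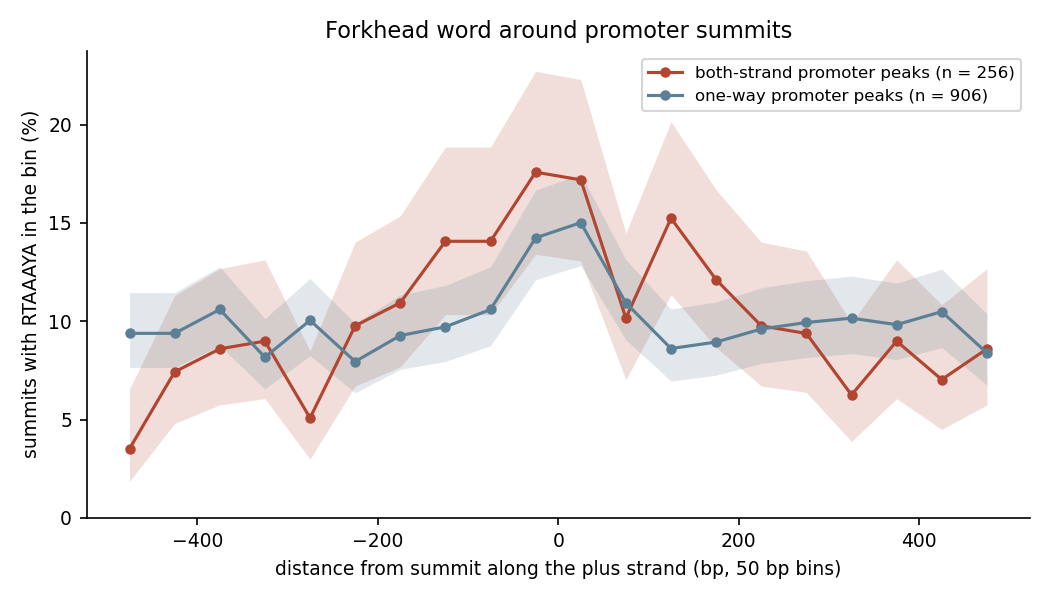
Share of summits (vertical, %) with RTAAAYA in each 50 bp bin along the plus strand (horizontal, bp from the summit), for 256 both-strand and 906 one-way promoter peaks, with 95% Wilson intervals as bands. Both curves are highest in the 2 bins next to the summit (17.6% and 17.2% of members, 14.2% and 15.01% of one-way peaks), and members also reach 15.2% at 100 to 150 bp.

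The forkhead share itself was not shown to differ from that of one-way summits. It was 29.3% at members and 234 of 906 (25.8%, 95% Wilson interval 23.1 to 28.8) at one-way summits, a difference of 3.47 percentage points (two-sided Fisher's exact test, adjusted p = 0.46). In the replicates' leading peaks the difference was 0.876, 7.47 and 0.121 points (2.82 ± 4.04, SD, n = 3). One-way summits had the word in 17.1% of their flank windows. Members with RTAAAYA had a median signal of 291, and those without it 257. The other forms did not share the higher value, with medians of 237 for members with GTAAACA and 266 for those with AYAAAYA. It was found at 42 of the 128 members with the higher signals (32.8%, 25.3 to 41.3) and 33 of the 128 with the lower (25.8%, 19.0 to 34.0), intervals that overlap.

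Of the 25 motifs, 8 (32%) passed against the flanks, all more frequent at the summit. They included the 3 forkhead forms, the TATA box TATAAA (52 of 256 members, 20.3%, against 40 of 512 flank windows, 7.81%) and the homeodomain word TAATTA (26 members, 10.2%, against 4.10%). The TATA word overlapped a forkhead word in 17 members, so these counts are not independent. The remaining 3 were paired CGATA words of BEAF-32 (15 members, 5.86%, against 0.781% of flank windows), the DREF site (8 members, 3.12%, against 0.391%) and the core promoter word GTATTTT (16 members, 6.25%, against 2.34%). By Fisher's exact test their adjusted p were 2.45e-04, 0.0115 and 0.0393. All of these windows share the difference in base composition given above.

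**Figure D4:**
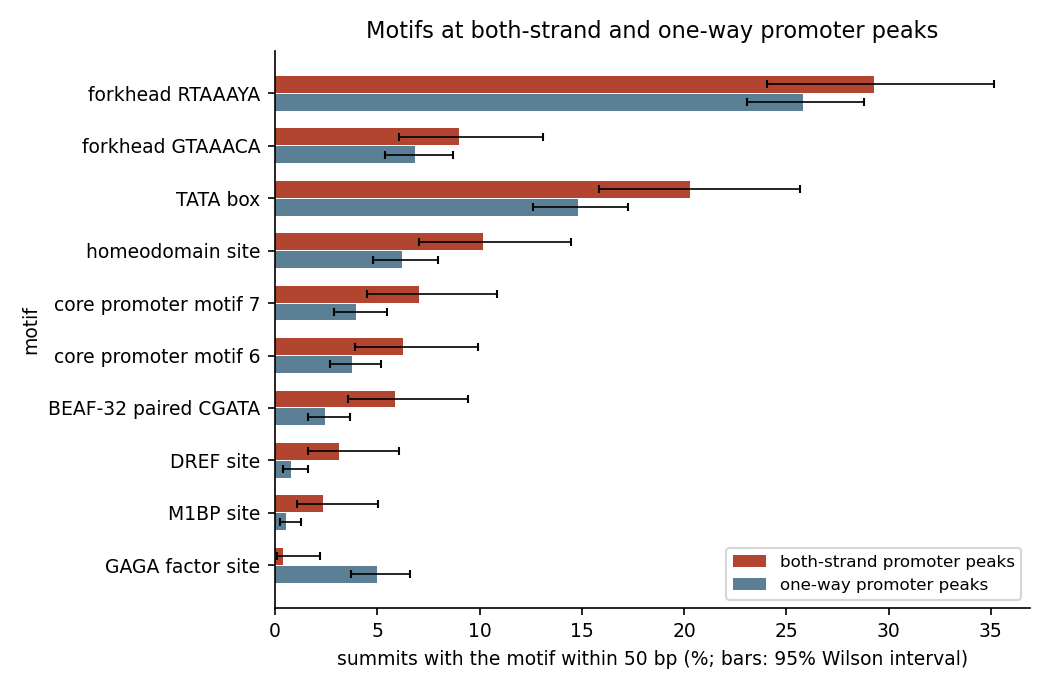
Share of summits with each of 10 motifs within 50 bp (horizontal, %) at 256 both-strand and 906 one-way promoter peaks, with 95% Wilson intervals as error bars and 1 pair of bars per motif. The GAGA factor word is at 0.391% of members and 4.97% of one-way peaks, and the DREF, BEAF-32 and M1BP words are at higher shares of members without passing the adjusted test in this window.

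Against one-way summits only the GAGA factor word passed, 1 of 25 motifs (4%), and it was rarer at members. GAGAGAG lay at 1 of 256 members (0.391%, 95% Wilson interval 0.069 to 2.18) and 45 of 906 one-way summits (4.97%, 3.73 to 6.58). The difference was -4.58 percentage points (two-sided Fisher's exact test over 25 motifs, adjusted p = 0.00476). Flank windows held the word at 0.977% beside members (Fisher's exact test against their summits, adjusted p = 0.837). Beside one-way summits they held it at 2.87% (Fisher's exact test, adjusted p = 0.0406). The word was therefore not shown to be rarer at member summits than in their own flanks. The part of G+C content, 36.5% at members and 40.6% at one-way summits, was not tested. In replicates 1, 2 and 3 the shares were 0.361%, 0.847% and 0.429% of members and 4.40%, 6.78% and 4.71% of one-way leading peaks, so members were lower in 3 of 3. The single carrier was Pdk1/lncRNA:CR45805 (chr3L:131304-131707, rank 2571), where Pdk1 encodes a kinase of insulin signalling. Over the annotation, bound or not, GAGAGAG was in 1.53% of divergent midpoints and 1.58% of one-way TSS windows. These windows sit at the midpoint of a pair or on the TSS itself, not where summits lay. Restricted to peaks leading in 2 replicates, the count was 0 members in each case (0 of 138, 0 of 164 and 0 of 147 without replicates 1, 2 and 3, which allow shares of up to 2.17%, 1.83% and 2.04%). The adjusted p by Fisher's exact test was then 0.125 without replicate 1, 0.0695 without replicate 2 and 0.0456 without replicate 3. It did not pass among peaks above the median signal (0 of 115 members, which allows up to 2.61%, and 19 of 461 one-way summits, Fisher's exact test, adjusted p = 0.316) or within 25 bp of the summit (adjusted p = 0.205).

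The words of housekeeping promoters were at higher shares of members, but did not pass within 50 bp under the rule as given, while each passed under some alternatives. The DREF site was at 8 of 256 members (3.12%, 95% Wilson interval 1.59 to 6.04) and 7 of 906 one-way summits (0.773%, 0.375 to 1.59) (Fisher's exact test, adjusted p = 0.094). In replicates 1, 2 and 3 it was at 3.61%, 3.39% and 3.43% of members and 0.859%, 0.872% and 0.768% of one-way leading peaks. It passed within 100 bp of the summit, with 18 members (7.03%) against 11 one-way summits (1.21%) (Fisher's exact test, adjusted p = 2.87e-05). Paired CGATA words behaved alike, at 15 members (5.86%) against 22 one-way summits (2.43%) within 50 bp (Fisher's exact test, adjusted p = 0.113). Within 100 bp they were at 38 members (14.8%) against 50 one-way summits (5.52%), with an adjusted p of 2.87e-05 by Fisher's exact test. The 2 words share letters, and 7 members held both. The DREF site also passed within 25 bp (5 members against 0 one-way summits), with TSSs within 1000 bp and with ribosomal protein promoters kept (Fisher's exact test, adjusted p = 0.0126, 0.0104 and 0.0118). Paired CGATA words also passed with TSSs within 250 bp (Fisher's exact test, adjusted p = 0.0137). Neither passed under the other alternatives, among them using protein-coding TSSs only and keeping only IDR peaks that lead in 2 replicates. Without replicates 1, 2 and 3 that left 138, 164 and 147 members. The DREF site was there at 3.62%, 3.05% and 4.08% of members and 1.02%, 0.813% and 0.818% of one-way summits. Paired CGATA words were there at 5.07%, 5.49% and 5.44% of members and 2.20%, 1.95% and 2.13% of one-way summits. The M1BP site GGTCACAC was at 6 members (2.34%) and 5 one-way summits (0.552%) (Fisher's exact test, adjusted p = 0.114). It passed within 100 bp (13 members, 5.08%, against 9 one-way summits, 0.993%) and with ribosomal protein promoters kept (Fisher's exact test, adjusted p = 7.9e-04 and 0.0137), and under no other alternative.

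The same words were counted at the midpoints of annotated divergent TSS pairs, without a test. Of the 2942 annotated divergent midpoints, 4.52% held the DREF site, 8.29% paired CGATA words and 2.48% the M1BP site within 50 bp. Members stood at 3.12%, 5.86% and 2.34% in the same order. Around annotated one-way TSSs the shares were 1.93%, 3.996% and 2.34%. In all, 21 members held at least 1 of the 3 words, and 2 of these (9.52%) also held RTAAAYA, against 29.3% of all members.

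**Figure D5:**
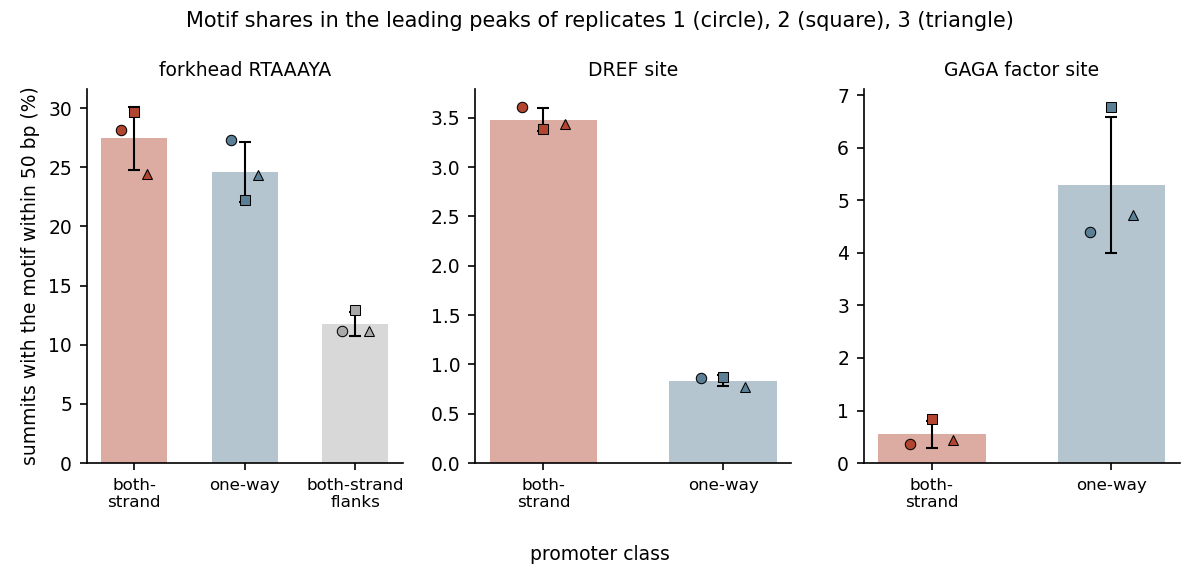
Shares of summits (vertical, %) with RTAAAYA, the DREF site and the GAGA factor word within 50 bp in the 2919 leading peaks of replicates 1 (circles), 2 (squares) and 3 (triangles), with bars for the mean and error bars for the SD (n = 3). DREF shares of members (3.39 to 3.61%) lie above those of one-way peaks in every replicate and GAGA shares below, while the forkhead shares of members and one-way peaks overlap and lie above the flanks.

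When every one of the 8192 possible words of 7 bases was counted, with reverse complements merged, the counts gave 1 word that separated members from one-way summits (0.0122%). AAATAAT was at 47 of 256 members (18.4%) and 65 of 906 one-way summits (7.17%) (Fisher's exact test, adjusted p = 0.0044), and 353 words had an unadjusted p under 0.05. AAATAAT has no G or C, and the part of G+C content, 36.5% at members and 40.6% at one-way summits, was not tested. When only peaks leading in the other replicates were kept, without replicate 2 (164 members) or without replicate 3 (147 members), no word passed. CTATCGA, which overlaps the DREF site, followed with 16 members (6.25%) and 12 one-way summits (1.32%) (Fisher's exact test, adjusted p = 0.137). Against the flanks, 58 words passed (0.708%), 57 of them more frequent at the summit and 50 with at most 1 G or C. GTAAACA was among them (Fisher's exact test, adjusted p = 0.00394), and CTGCTCC, at 0 members and 23 flank windows, was the only one that was rarer.

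The members' genes were spread over many cellular functions. The counts below are of genes with a member among the genes of a list that have an opposite-strand TSS of another gene within 1000 bp, and are to be read against 8.53% of all such genes. The lists were chosen with earlier results known and are described without a test.

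In protein synthesis, 6 of 58 mitochondrial ribosomal protein genes (10.3%) had a member, namely mRpS23, mRpS10, mRpL23, mRpL53, mRpL24 and mRpS2. In replicates 1, 2 and 3 the count was 6, 4 and 5. The mRpL23/CG9004 promoter ranked 123, with signals of 280, 260 and 289 in the replicates. The mRpL53 peak, shared with AGO1, the Argonaute protein of the microRNA pathway, had signals of 110 and 81.8 in replicates 1 and 2 and overlapped no listed peak in replicate 3. Translation factors had 4 of 27 (14.8%), which were eIF6, eIF4EHP, eIF3a and eIF3h. The eIF6 promoter, shared with a non-coding antisense RNA, ranked 99, with signals of 320, 305 and 267. Aminoacyl-tRNA synthetases had 0 of 23, and 2, 0 and 1 in the leading peaks of replicates 1, 2 and 3.

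Each of 2 lists of chromatin genes had 4 genes with a member. Of 15 insulator and promoter architecture genes, Chro, Cp190, pzg and M1BP had a member (26.7%), with 3, 2 and 4 genes in the replicates. Cp190, a cofactor of insulator proteins, shared its promoter with CG4338 at chr3R:15275259-15275403 (rank 453, with signals of 237, 122 and 171 in replicates 1, 2 and 3). Of 16 Polycomb and Trithorax group genes, brm, E(z), Su(z)12 and fs(1)h had one (25%), with 3, 1 and 2 in the replicates. E(z) and Su(z)12 encode subunits of the complex that methylates histone H3 at silenced genes, and fs(1)h a bromodomain protein. Both E(z) (rank 2232, with signals of 114, 40.01 and 63.8) and Su(z)12 (rank 2750, with 69.2, 34.9 and 67.2) were weak and ranked lowest in replicate 2.

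For transcription and splicing, RNA polymerase and Mediator had 4 of 39 (10.3%), with MED30, Polr3E, Polr2H and MED4, and the spliceosome 1 of 30 (3.33%), which was SmD3. DNA replication and repair had 3 of 40 (7.50%), with Rad60, PCNA2 and mus312. The list used for the cell cycle had 2 of 24 (8.33%), the kinases Cdc7 and Cdk12. Being listed does not assign Cdk12 a role in the cell cycle. Cdk12 shared its promoter with SAK, the kinase that starts centriole duplication, and its peak carried RTAAAYA. The proteasome had 2 of 26 (7.69%), Rpn13 and Rpn6, although no replicate had a leading summit that met the both-strand rule at a proteasome gene. The Rpn13 peak still overlapped leading peaks of replicates 1 and 2 (ranks 1450 and 1223), and its summit in the IDR list lay 432 bp from the farther TSS. The respiratory chain and ATP synthase had 2 of 47 (4.26%), with ND-ASHI and COX6B.

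Lists of developmental regulators held no gene with a member, but few of their genes were eligible. Homeobox genes had 0 of 5 eligible among 63, the forkhead family 0 of 3 among 17, and signalling pathway genes 0 of 18 among 38. None of the listed genes had a both-strand leading peak in a replicate either. With so few eligible genes, counts of 0 do not show a share below the 8.53% of all eligible genes.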

How the data were processed

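The data are deposited ChIP-seq peak lists on dm6, 1 for each of 3 biological replicates, 1 for the pooled replicates and 1 IDR list. The peak strength is the deposited signal, and the deposited −log10 q-value served only to count peaks with q under 0.05, which 2784 IDR peaks had. For the aligner, peak caller and IDR cut-off, the sources used here give no name or value. Each relaxed list holds 30000 peaks, so comparisons between replicates used the 2919 leading peaks of each by signal, as many as the IDR list, matched by an overlap of at least 1 bp. A q under 0.05 was given for 4964, 3017 and 1598 peaks of replicates 1, 2 and 3. The leading peaks of replicate 3 therefore include peaks with q of 0.05 or more, and the 3 sets are not equal in q. A peak, or a flank window beside it, is the unit of every test, and 124 IDR peaks overlap another. Tests against flanks counted the flank windows on either side of a summit as independent of it and of each other.

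TSSs came from Ensembl release 115 without transposable elements, sequence from NCBI release 6. Windows of 50 bp around the summit, and the same 500 bp away on either side, were scanned for motifs in both orientations, and shares were tested by Fisher's exact test (two-sided) with Benjamini-Hochberg adjustment over 25 motifs or 8192 words, called at an adjusted p under 0.05. Tests were checked on simulated windows, drawn at random genome positions for both groups alike. That check covered neither the difference in G+C content nor flank windows tied to a summit. Named promoters were the 12 strongest members, the 6 strongest divergent ones with RTAAAYA, the 3 strongest with facing TSSs, the strongest with a called motif, the 3 weakest and up to 4 genes of each of 14 lists, in which 8 listed symbols matched no gene. A pattern that also matched an unrelated gene name was narrowed after the first results. The members and lists were chosen with earlier results of these data known. Tools were SciPy 1.17.1, NumPy 2.4.6 and pandas 2.3.3 in Python 3.11.15, with figures from matplotlib 3.10.9. Limits for a count of 0 take 3 counts of the total and cover counting error only, as do the Wilson intervals.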

Additional observations from a re-analysis of the deposited data

How the results depend on the processing

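The forkhead ratio to the flanks passed under every alternative run, at 1.90 to 3.41 for RTAAAYA, 2.24 for AYAAAYA and 5.11 for GTAAACA. None of these alternatives was set to hold the G+C content of summits and flanks equal. Leaving a replicate out kept the IDR peaks that lead in both other replicates, so fewer peaks remained and none was called anew. For the difference in leading peaks, all IDR peaks stayed and only the other replicates were counted. The forkhead difference from one-way summits passed under none (0.447 to 6.85 percentage points). The both-strand share of promoter summits was 17.005% with TSSs within 250 bp, 28.4% within 1000 bp and 19.0 to 21.1% when a replicate was left out. The density ratio was 2.81 with 250 bp, 1.76 with 1000 bp, 1.57 in the pooled relaxed list and 1.71 to 1.95 when a replicate was left out. Motifs that passed against one-way summits numbered 0 among peaks above the median signal, 3 with 250 bp, 4 with 1000 bp, 3 with ribosomal protein promoters kept, 7 with windows of 100 bp and 0 to 1 when a replicate was left out. Against flanks, 5 passed among peaks above the median signal. Words that passed against one-way summits numbered 0 above the median signal, 2 with ribosomal protein promoters kept, 0 with windows of 25 bp, 20 with windows of 100 bp and 0 to 1 when a replicate was left out. The difference in the share among the strongest peaks turned to 5.28 points above the median signal, 0.954 with q under 0.05, 0.057 with 1 peak per overlapping run, 2.19 with 250 bp, 2.55 with protein-coding TSSs only, 3.76 with ribosomal protein promoters kept and 3.46 to 7.11 when a replicate was left out, and passed in none. The difference in leading peaks lost its call above the median signal (-1.98), with 250 bp (-3.67), with 1000 bp (-3.27) and with ribosomal protein promoters kept (-5.98), and ranged from -11.2 to -3.82 when a replicate was left out. Eligible genes with a member were 3.90% above the median signal, 6.83% with 250 bp, 10.5% with 1000 bp and 4.62 to 5.44% when a replicate was left out, since fewer peaks then remain. The cause was not tested in the other cases. No pairing of samples was possible because the study has 1 group. Summits could be paired with their own flank windows, which the flank tests did not do. Unknown read depth limits every value: a missing peak may lie below the lists' reach.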
